A study of Mus musculus with 12 samples.

Results

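The genes described here carry glucose into the cell, break it down to pyruvate and lactate, feed pyruvate to the mitochondrion, or divert glucose into the pentose phosphate pathway. They were taken as a fixed list of 38 symbols, drawn up by what the genes do, with no measured value in the rule. Earlier results of these data were known when the list was chosen. All 38 are among the 15651 genes of the deposited table, each in 1 row, and all 38 passed the filter (group mean of 1 TPM or more in any group compared). TPM is the number of transcripts of a gene, corrected for its length, per fixed total of transcripts in a library.

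The study asked how blocking the bromodomains of the acetyltransferases p300 and CBP with CCS1477 changes transcription in 2 mouse models of acute myeloid leukemia (AML). *D/F* AML carries floxed *Dnmt3a* alleles, homozygous *Flt3* internal tandem duplications (ITD) and *Mx1-Cre*, and *T/F* AML carries floxed *Tet2* alleles with the same *Flt3* ITD alleles and *Mx1-Cre*. Both models therefore share the *Flt3* ITD and the Cre, and no wild-type or *Flt3* ITD alone cells were among the samples. Cre was not induced: its leaky expression let hematopoietic cells lose 1 or both floxed alleles on their own, and how far deletion had gone in each sample is not stated. Splenocytes of 3 moribund mice of each genotype were enriched for c-Kit on magnetic beads, and the cells of each mouse were given CCS1477 or DMSO for 6 hours in medium with SCF, IL6 and IL3. The dose was 4 µM in *D/F* and 2 µM in *T/F*, so dose and genotype cannot be told apart. That gives 12 libraries in 4 groups of 3, and replicates 1, 2 and 3 below are the mice, so a number marks the same mouse with DMSO and with CCS1477.

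Glucose enters through facilitative transporters and is trapped as glucose 6-phosphate by hexokinases. Phosphofructokinase commits it to glycolysis, the lower enzymes yield ATP and pyruvate, and pyruvate is either reduced to lactate and exported or taken into the mitochondrion and oxidized by the pyruvate dehydrogenase complex, which PDH kinases switch off. Leukemia cells with an activated FLT3 receptor are known for high aerobic glycolysis, and the transcription factors MYC and HIF-1, for which p300 and CBP are coactivators, are known activators of many of these genes.

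Summed TPM ran from 914204 to 931697 over the 12 libraries. The unit keeps no read numbers and no spike-in is recorded, so cells holding more or less RNA in all would look alike here. The study's methods state a read number per sample, but the depth reached by each library is unknown. In such bulk samples fewer cells of a type and less RNA per cell cannot be told apart. Markers of the leukemic stem and progenitor cells sought by the enrichment (8 of 8 listed) were present in every library, with *Kit* from 22.8 to 149 TPM and *Mpo* from 277 to 3673 TPM, but so were the markers of mature neutrophils (8 of 8 listed), with *S100a8* from 807 to 4682 TPM. The other marker lists were low: the summed macrophage markers (4 of 7 listed) reached 32.1 TPM, erythroid markers (6 of 7) 33.1 TPM, T cell markers (3 of 6) 25.7 TPM, B cell markers (2 of 5) 23.2 TPM, mast cell and basophil markers (4 of 6) 183 TPM, and megakaryocyte markers (4 of 4) 212 TPM. With CCS1477 the summed progenitor list went from 10352, 4031 and 8049.9 TPM to 4338, 882 and 3206 TPM in *D/F* replicates 1, 2 and 3, and from 6624, 5901 and 4403 TPM to 3085, 2502 and 1756 TPM in *T/F*. Most of this sum is *Mpo*, *Elane*, *Ctsg* and *Prtn3*. With DMSO, *D/F* replicate 2 had the lowest sum of the *D/F* mice but the highest *Kit*, *Flt3*, *Cd34* and *Myb* (149, 46.0, 447 and 406 TPM). The progenitor sum was lower with CCS1477 in each of the 6 mice, and so were the macrophage, mast cell and basophil, megakaryocyte, erythroid and B cell sums. The ranges of the first 3 of these are given with the hexokinases. Their part in the changes below was not tested.

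CCS1477 changed a few entry and exit points of the pathway. Most of its abundant enzymes were not called without the mouse as a block, whereas with the block *Gpi1*, *Tpi1*, *Pgam1*, *Eno1* and *Ldha* were called lower in *T/F*. The hexokinase *Hk3*, the lactate exporter *Slc16a1* and the regulatory enzyme *Pfkfb3* were the genes with the largest falls, and the PDH kinase *Pdk2* was the gene with the largest rise in both genotypes. In *T/F*, limma on log2(TPM + 1) called 5 of the 38 genes higher (13.2%) and 8 lower (21.1%) (adjusted p under 0.05, whatever the fold), against a background of 25.8% of all 15256 genes tested called higher and 17.6% called lower. In *D/F* it called 1 gene higher (2.63%) and 2 lower (5.26%), against 5.14% and 6.51% of all 15501 genes tested. Above 2-fold, the *T/F* calls were *Pdk2* (1 higher, against 2.63% of all genes) and *Hk3* and *Slc16a1* (2 lower, against 4.7% of all genes), and the *D/F* calls were *Hk3* and *Pfkfb3*, with 0 higher (against 2.67% higher and 4.61% lower over all genes). In the fit with the mouse as a block, 1 gene was higher and 3 were lower by this measure in each genotype, against 4.23% and 6.97% of all genes (*D/F*) and 2.67% and 5.18% (*T/F*).

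With the mouse as a block, which uses that each pair of samples came from 1 mouse, the *T/F* counts were 7 higher (18.4%) and 16 lower (42.1%), against a background of 31.2% and 22.9%. In *D/F* they were 6 higher (15.8%) and 7 lower (18.4%), against 21.4% and 18% of all genes. Over both genotypes together, 6 of 38 were higher and 7 lower against 25.8% and 19.6% of all genes, and 8 and 14 with the mouse as a block against 34.5% and 25.9%. The shared fit of all 4 groups, in which all mice set 1 spread, kept the *T/F* calls of *Hk3*, *Slc16a1*, *Pdk2* and *Rpia* and lost those of *Slc2a3*, *Hk1*, *Hk2*, *Pfkm*, *Pgam1*, *Ldhb*, *Mpc1*, *Pdhb* and *Hif1a*. The share called higher was below the background in each of these fits. The share called lower was above it in *T/F* with and without the block and, with the block, over both genotypes. Otherwise it was close to the background or below it. That includes the shared fit in *T/F*, with 4 of 38 lower, against 1601 of 15256 genes. In all, the shared fit called 5 of the 38 in *T/F* (13.2%), against 24.3% of all genes. The median log2 fold change of the 38 genes was -0.08 (*D/F*) and -0.13 (*T/F*), beside 0.06 and 0.07 over all genes tested. Rescaling each library to its median gene gave 3 higher and 11 lower in *T/F* in place of 5 and 8. Quantile normalization gave 2 and 2 in *D/F* in place of 1 and 2.

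Only *Hk3* was called in both genotypes without the block (2.63% of the 38 genes, against 10.7% of all genes tested in both). The fit with the block called 13 genes in both (34.2%, against 33.6% of all genes), and all 13 went the same way in *D/F* and *T/F*, as did 99.7% of all genes called in both. The 6 that rose were *Ldhb*, *Pdk2*, *Pfkm*, *Mpc1*, *Mpc2* and *Pdhb*, and the 7 that fell were *Slc2a3*, *Slc16a1*, *Rpia*, *Hk1*, *Hk3*, *Pfkp* and *Pfkfb3*. All 3 mice were higher for 9 genes and lower for 12 in *D/F* (against 38.5% and 31% of all genes) and for 9 and 22 in *T/F* (against 43.9% and 31.3%). Over all mice, 8 of the 38 genes were higher with CCS1477 in 6 of 6 mice (21.1%) and 11 lower in 6 of 6 (28.9%), against 32.3% and 24.5% of the 15174 genes tested in both genotypes. Without *D/F* replicate 1 or without replicate 3 no gene of the whole table was called in *D/F* (smallest limma adjusted p 0.0771 and 0.172). An unadjusted p below 0.05 was then found for 4 and 3 of the 38 genes (10.5% and 7.89%), against 16.1% and 15.0% of all genes. Without replicate 2, limma called 6 of the 38 (15.8%) against 24.6% of all genes.

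**Figure D1:**
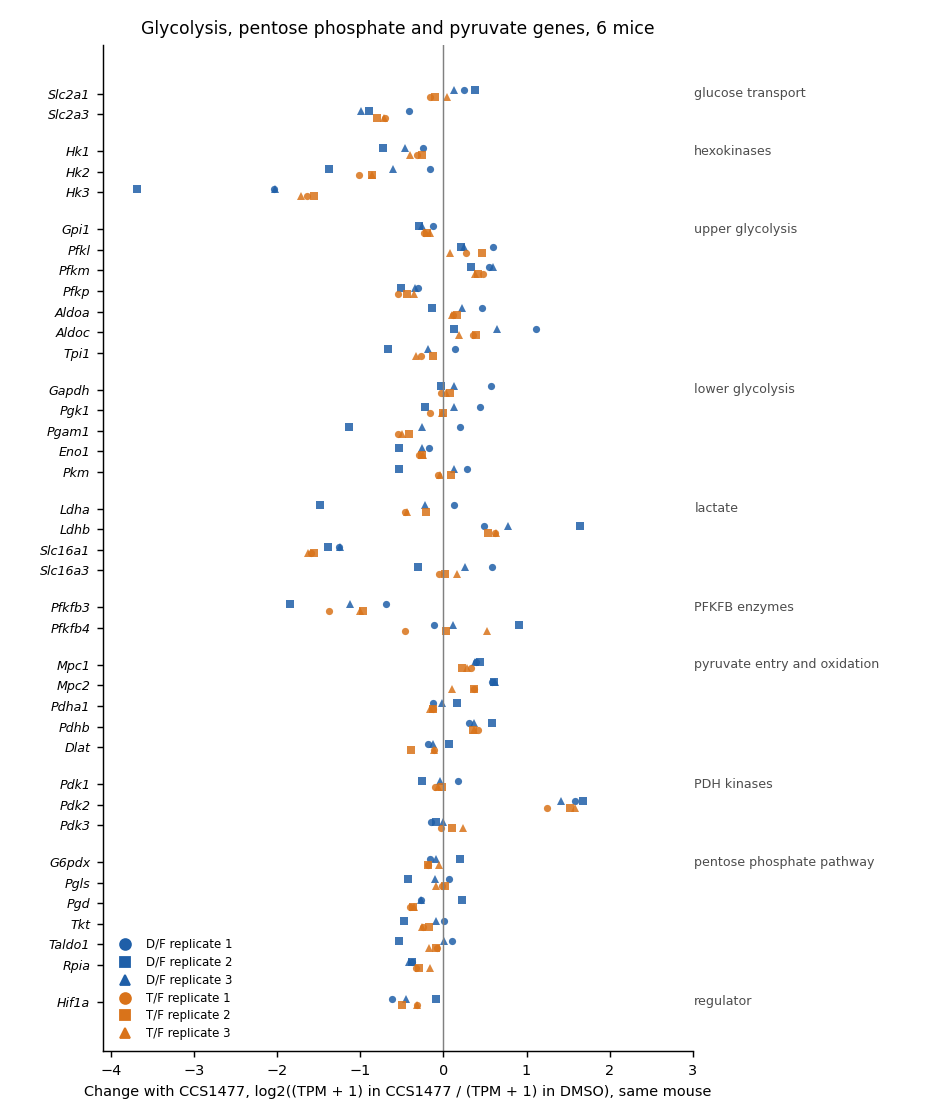
Change with CCS1477 in each mouse for the 38 genes, grouped by role. The x axis is the log2 ratio of TPM + 1 in CCS1477 to TPM + 1 in DMSO of the same mouse, each point is 1 mouse (blue *D/F*, orange *T/F*; circles, squares and triangles are replicates 1, 2 and 3), and points left of 0 are lower with CCS1477. *Hk3*, *Slc16a1*, *Pfkfb3*, *Slc2a3*, *Hk2* and *Hk1* lie left of 0 in all 6 mice, and *Pdk2*, *Ldhb*, *Mpc1*, *Mpc2*, *Pdhb* and *Pfkm* right of it in all 6. Of the lower glycolytic enzymes, *Gapdh*, *Pgk1* and *Pkm* lie on both sides of 0. *Eno1* lies left of 0 in all 6 mice, and *Pgam1* in all but 1. *D/F* replicate 2 is the lowest of the 6 mice for most of these enzymes.

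The promoters of the genes with the largest changes were read from RefSeq on the GRCm38.p6 build, as the 250 bases before the start of the transcript, and searched on both strands for ACGTG, the core bound by HIF-1, and for CACGTG, the E-box bound by MYC and by MondoA, which contains the former. Promoters were found for 37 of the 38 genes (53 promoters, since some genes have several starts). CACGTG lay in 6 of the 53 (11.3%) and in 6.02% of all 32851 promoters, and ACGTG in 19 of the 53 (35.8%) and in 16.6% of all promoters. A match is a description of the letters, not of binding. Shown are the genes with the largest falls (*Slc16a1*, *Hk3* and *Pfkfb3*, the last with 2 listed starts), *Hk2*, which fell in *T/F*, the one that rose most (*Pdk2*), and *Ldha*, a textbook target of both factors, 5′ to 3′ on the strand of the gene with the matches in capitals (the full CACGTG or the core alone, which reads CACGT where it lies on the other strand).
Slc16a1, chr3:104638414-104638663, plus strand: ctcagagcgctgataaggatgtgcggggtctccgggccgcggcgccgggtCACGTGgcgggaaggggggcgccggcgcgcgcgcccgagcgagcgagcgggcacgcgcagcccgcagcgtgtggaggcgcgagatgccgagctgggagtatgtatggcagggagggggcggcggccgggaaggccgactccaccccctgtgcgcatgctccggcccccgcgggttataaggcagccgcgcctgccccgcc
Hk3, chr13:55021386-55021635, minus strand: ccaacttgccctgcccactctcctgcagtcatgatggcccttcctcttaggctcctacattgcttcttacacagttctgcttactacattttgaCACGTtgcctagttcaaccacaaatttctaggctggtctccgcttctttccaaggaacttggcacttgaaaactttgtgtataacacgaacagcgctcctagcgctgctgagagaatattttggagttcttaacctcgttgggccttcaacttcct
Pfkfb3, chr2:11553930-11554179, minus strand: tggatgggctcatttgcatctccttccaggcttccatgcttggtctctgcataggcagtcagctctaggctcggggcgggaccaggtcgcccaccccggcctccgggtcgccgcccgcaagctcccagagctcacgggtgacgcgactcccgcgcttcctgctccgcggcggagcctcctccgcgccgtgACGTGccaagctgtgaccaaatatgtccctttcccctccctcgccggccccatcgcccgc
Pfkfb3, chr2:11502091-11502340, minus strand: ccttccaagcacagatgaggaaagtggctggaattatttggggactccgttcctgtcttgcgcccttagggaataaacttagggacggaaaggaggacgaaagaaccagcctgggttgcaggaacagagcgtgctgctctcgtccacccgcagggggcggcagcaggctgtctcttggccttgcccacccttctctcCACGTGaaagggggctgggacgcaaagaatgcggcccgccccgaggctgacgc
Hk2, chr6:82774455-82774704, minus strand: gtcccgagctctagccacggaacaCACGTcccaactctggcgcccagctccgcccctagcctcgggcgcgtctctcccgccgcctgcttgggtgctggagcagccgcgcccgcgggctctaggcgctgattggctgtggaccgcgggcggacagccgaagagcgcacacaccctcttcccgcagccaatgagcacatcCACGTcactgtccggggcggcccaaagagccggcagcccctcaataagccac
Pdk2, chr11:95041372-95041621, minus strand: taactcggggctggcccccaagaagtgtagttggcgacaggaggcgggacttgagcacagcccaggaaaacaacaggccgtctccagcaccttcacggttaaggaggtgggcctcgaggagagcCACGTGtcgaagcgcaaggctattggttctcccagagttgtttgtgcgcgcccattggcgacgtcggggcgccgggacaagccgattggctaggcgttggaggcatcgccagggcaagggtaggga
Ldha, chr7:46845554-46845803, plus strand: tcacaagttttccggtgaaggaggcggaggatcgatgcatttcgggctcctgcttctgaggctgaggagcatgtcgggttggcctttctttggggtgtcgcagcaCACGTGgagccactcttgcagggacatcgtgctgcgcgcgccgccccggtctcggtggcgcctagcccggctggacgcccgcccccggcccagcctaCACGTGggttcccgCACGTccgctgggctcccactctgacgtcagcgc
*Slc16a1* and *Pdk2*, which went in opposite directions, each hold 1 full CACGTG, *Pdk2* at the start shown. At the start shown, *Ldha* holds 2 full E-boxes and 1 further core in these 250 bases, and *Hk2* and *Hk3* hold the core alone. *Pdk2* and *Ldha* each have another listed start, not shown, which holds neither match. Of the 2 starts of *Pfkfb3*, the first has the core alone and the second 1 full CACGTG.

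The 3 hexokinases fell together in *T/F*, and *Hk3* fell most in both genotypes. *Hk3* (ENSMUSG00000025877, chromosome 13 from 55005985 to 55021385, GRCm38, minus strand) encodes hexokinase 3, the form of myeloid cells. It was at 178, 154 and 113 TPM in *D/F* replicates 1, 2 and 3 with DMSO and at 42.4, 11.1 and 27.1 TPM with CCS1477. The *T/F* values were 105, 78.6 and 75.7 TPM with DMSO and 32.9, 26.1 and 22.4 TPM with CCS1477. Every CCS1477 library was below every DMSO library, with the lowest value in *D/F* replicate 2. Its log2 fold change was -2.58 (standard error, SE, 0.47, limma adjusted p = 0.0235) in *D/F* and -1.64 (SE 0.19, limma adjusted p = 0.00162) in *T/F*, where the call held under all 11 alternatives. In *D/F* it was lost without replicate 1 or 3, where the log2 fold change was -2.86 in both cases and the limma adjusted p reached 0.217.

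*Hk2*, which encodes the inducible hexokinase 2, was at 54.9, 62.2 and 59.1 TPM in *T/F* with DMSO and at 26.5, 33.7 and 32.1 TPM with CCS1477. In *D/F* the values were 81.1, 40.3 and 66.5 TPM and 72.7, 14.8 and 43.2 TPM. The *T/F* groups did not overlap, whereas the *D/F* groups did, with within-mouse changes from -0.16 in replicate 1 to -1.38 in replicate 2 on the log2 scale. The change on the log2 scale was -0.91 (SE 0.11, limma adjusted p = 0.00186) in *T/F* and -0.72 (SE 0.58, limma adjusted p = 0.448, and 0.0934 with the mouse as a block) in *D/F*.

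*Hk1* encodes the constitutive hexokinase 1. It was at 151, 142 and 123 TPM in *D/F* with DMSO and at 127, 85.6 and 88.5 TPM with CCS1477, and at 103, 105 and 109.8 TPM and 82.7, 87.4 and 83.1 TPM in *T/F*. Each of the 6 mice was lower with CCS1477, with groups that overlapped in *D/F* through the CCS1477 sample of replicate 1 and did not overlap in *T/F*. The log2 fold change of -0.32 passed in *T/F* (limma adjusted p = 0.00836) and that of -0.48 passed in *D/F* with the mouse as a block (limma adjusted p = 0.0453, 0.173 without it). The *T/F* call was lost without any 1 of the mice, at log2 fold changes of -0.33, -0.36 and -0.29 without replicates 1, 2 and 3.

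The make-up of the hexokinase transcripts differed between DMSO and CCS1477. *Hk3* made up 43.4, 45.9 and 37.4 percent of the summed hexokinase TPM in *D/F* with DMSO and 17.5, 9.93 and 17.1 percent with CCS1477. In *T/F* its share was 40.0, 32 and 30.9 percent and 23.2, 17.7 and 16.2 percent. *Hk1* held the largest share in every CCS1477 library, at 52.5, 76.8 and 55.7 percent in *D/F* and 58.2, 59.4 and 60.4 percent in *T/F*, although its own level was lower. The sum of the 3 hexokinases was 409.8, 337 and 302 TPM in *D/F* with DMSO and 242, 111 and 159 TPM with CCS1477, and 263, 245 and 245 TPM and 142, 147 and 138 TPM in *T/F*. Beside the fall of *Hk3*, a gene of myeloid cells, the summed macrophage markers (4 of 7 listed) went from a range of 16.0 to 22.3 TPM to 2.72 to 4.31 TPM in *D/F*. The *T/F* range went from 19.3 to 32.1 TPM to 5.93 to 12.3 TPM. The mast cell and basophil markers went from 89.5 to 183 TPM to 18.8 to 44.0 TPM in *D/F*. The *T/F* range went from 42.5 to 81.0 TPM to 19.2 to 38.6 TPM. Megakaryocyte markers went from 34.9 to 212 TPM to 20.1 to 65.4 TPM in *D/F*, and for *T/F* from 49.4 to 56.6 TPM to 32.7 to 35.2 TPM. The mature neutrophil list overlapped between DMSO and CCS1477, at 9428, 2683 and 6281 TPM and 9322, 1629 and 6621 TPM in *D/F* and at 7185, 5674 and 2338 TPM and 6908, 5182 and 2493 TPM in *T/F*. That sum is mostly *S100a8*, *S100a9* and *Ngp*, and 4 of the 8 markers (*Ly6g*, *Camp*, *Mmp8* and *Retnlg*) were lower with CCS1477 in all 6 mice. The others went both ways: *Ltf* was higher in 5 of the 6 mice, *Ngp* and *S100a9* in 4 and *S100a8* in 2. *Ly6g* and *Retnlg* were called in *D/F*, at log2 fold changes of -1.42 and -2.40 (limma adjusted p = 0.0182 and 0.0418), and *Mmp8* in *T/F* at -1.64 (limma adjusted p = 0.048). The part of these cells in the result was not tested.

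**Figure D2:**
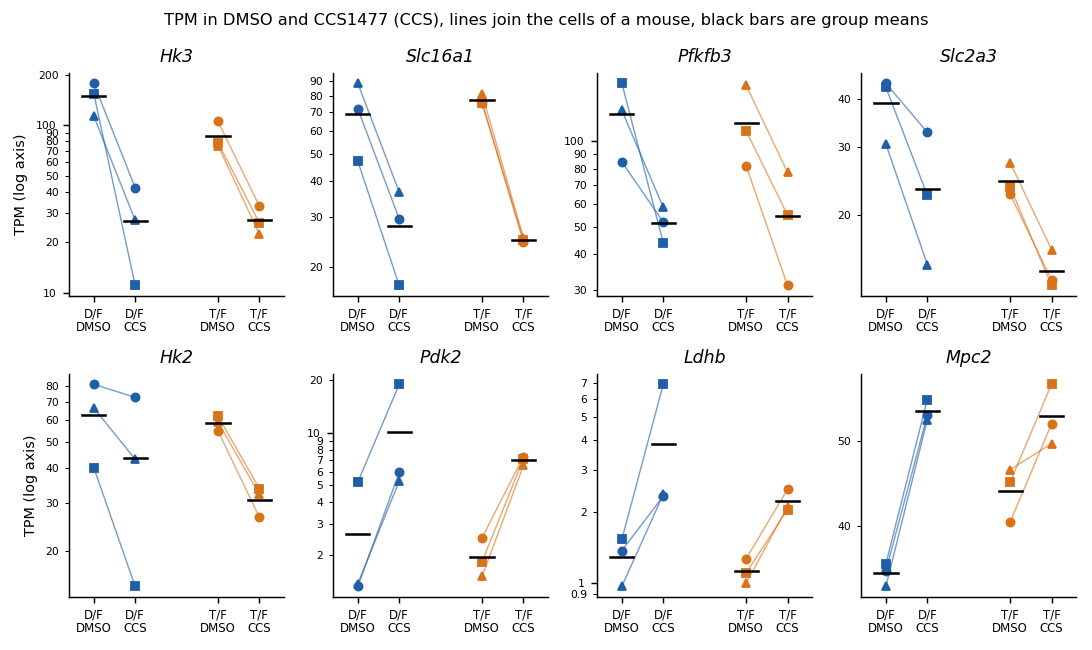
TPM on a log axis of 8 genes in each library, by genotype and treatment. Blue points are *D/F* and orange points *T/F*, symbols are replicates 1 (circle), 2 (square) and 3 (triangle), thin lines join the DMSO and CCS1477 samples of a mouse, and black bars are the means of 3 samples. *Hk3*, *Slc16a1* and *Pfkfb3* are lower with CCS1477 in every mouse and *Pdk2*, *Ldhb* and *Mpc2* are higher in every mouse, all 6 genes with no overlap of treatments within a genotype.

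The 2 glucose transporters of the list did not move together. *Slc2a3*, which encodes the high-affinity transporter GLUT3, was at 43.9, 42.8 and 30.5 TPM in *D/F* with DMSO and at 32.7, 22.5 and 14.8 TPM with CCS1477. In *T/F* it was at 22.6, 23.6 and 27.3 TPM and 13.5, 13.1 and 16.2 TPM. All 6 mice were lower with CCS1477, and the *D/F* groups overlapped only because the CCS1477 sample of replicate 1 was above the DMSO sample of replicate 3. limma put the log2 fold change at -0.74 (SE 0.11, limma adjusted p = 0.00394) in *T/F*. It was -0.77 (SE 0.31) in *D/F*, where the limma adjusted p was 0.152 and 0.0229 with the mouse as a block. In *T/F* the call was lost without replicate 2, at a log2 fold change of -0.71.

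*Slc2a1*, which encodes the widespread transporter GLUT1, was at 119.9, 22.3 and 73.6 TPM and 142, 29.4 and 80.7 TPM in *D/F* and at 55, 81.9 and 52.3 TPM and 49.1, 76.2 and 54.1 TPM in *T/F*, with DMSO and CCS1477 respectively. The groups overlapped in both genotypes, with *D/F* replicate 2 far below the other *D/F* mice under both treatments. The log2 fold change was 0.25 (SE 0.77) in *D/F* and -0.07 (SE 0.23) in *T/F*, neither of them called (limma adjusted p = 0.862 and 0.825). *Slc2a1* held 70.9, 77.6 and 65.7 percent of the summed TPM of the pair in *T/F* with DMSO and 78.4, 85.3 and 76.9 percent with CCS1477. In *D/F* the shares were 73.2, 34.2 and 70.7 percent and 81.3, 56.7 and 84.5 percent. The share was higher with CCS1477 in each mouse.

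Among the 7 enzymes from glucose 6-phosphate isomerase to triosephosphate isomerase, limma called 0 in *D/F* (0 with an unadjusted p below 0.05, against 30.4% of all genes) and 1 in *T/F* (2 with an unadjusted p below 0.05, against 51.7%). With the mouse as a block the counts were 1 higher and 1 lower in *D/F* (14.3% each, against 21.4% and 18% of all genes), and 2 higher and 3 lower in *T/F* (28.6% and 42.9%, against 31.2% and 22.9%). The 3 phosphofructokinase genes, whose products combine into the tetramer that commits sugar to glycolysis, went different ways. *Pfkm* (the muscle form) was at 12.5, 16.8 and 9.4 TPM in *D/F* with DMSO and 18.7, 21.5 and 14.7 TPM with CCS1477, and at 11, 11.8 and 11.9 TPM and 15.6, 16.1 and 15.7 TPM in *T/F*. It was higher in all 6 mice and did not overlap in *T/F*, where the log2 fold change was 0.42 (SE 0.06, limma adjusted p = 0.00335), lost without replicate 2 at 0.42. In *D/F* it was 0.49 (limma adjusted p = 0.239, 0.0251 with the mouse as a block).

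*Pfkp* (the platelet form) was the most abundant of the 3 in every DMSO library, at 294, 82.3 and 176 TPM in *D/F* and 137, 175 and 142 TPM in *T/F*. With CCS1477 it was at 238, 57.3 and 138 TPM and 93.3, 129 and 111 TPM. All 6 mice were lower, and its log2 fold changes (-0.39 in *D/F*, -0.45 in *T/F*) passed only with the mouse as a block (limma adjusted p = 0.038 and 0.00784, against 0.73 and 0.0583 without it). *Pfkl* (the liver form) was at 156, 63.3 and 107 TPM and 237, 73.5 and 127 TPM in *D/F*, and at 69.7, 85 and 85.1 TPM and 84.2, 117 and 89.9 TPM in *T/F*. It was higher with CCS1477 in all 6 mice, but its log2 fold changes of 0.35 and 0.27 were not called in either genotype (limma adjusted p = 0.681 and 0.203, 0.0793 and 0.0745 with the block).

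The balance between both forms separated the treatments more clearly than either level did. *Pfkl* made up 33.7, 39 and 36.6 percent of the summed phosphofructokinase TPM in *D/F* with DMSO and 48, 48.3 and 45.3 percent with CCS1477, and 32, 31.3 and 35.6 percent and 43.6, 44.7 and 41.6 percent in *T/F*. All 6 CCS1477 libraries were above all 6 DMSO libraries. *Pfkp* made up 62.9, 64.4 and 59.4 percent in *T/F* with DMSO and 48.3, 49.2 and 51.1 percent with CCS1477, and 63.6, 50.7 and 60.2 percent and 48.2, 37.6 and 49.4 percent in *D/F*, where replicate 2 was lowest under both treatments.

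**Figure D3:**
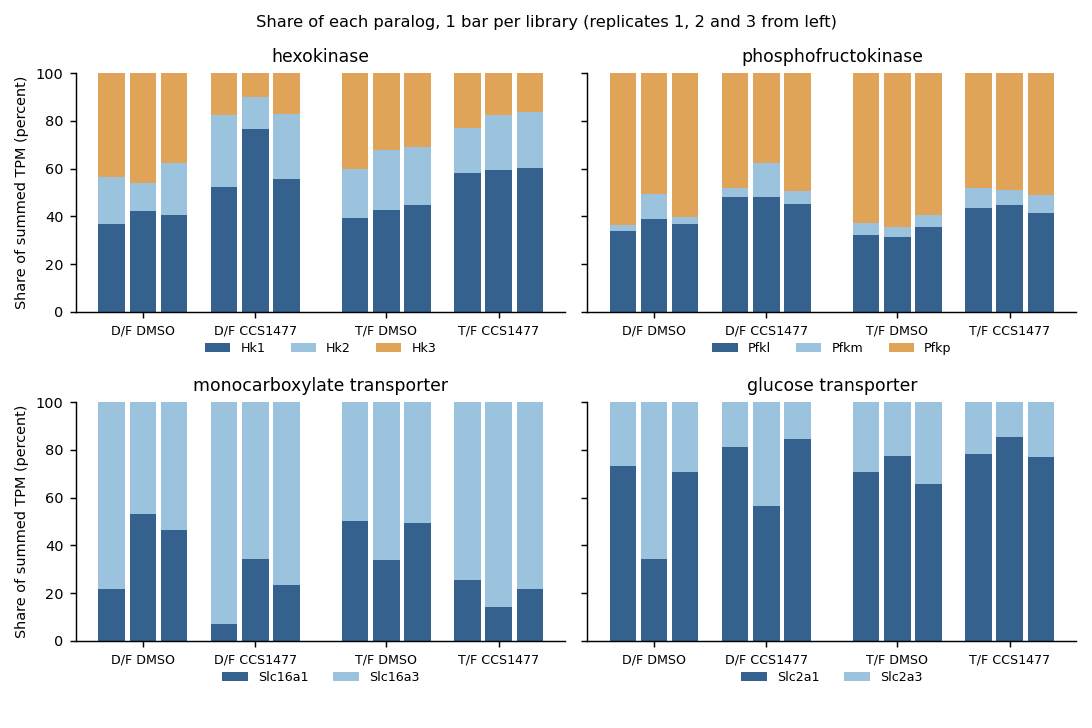
Share of each paralog in the summed TPM of its set, in percent on the y axis, for hexokinases, phosphofructokinases, lactate (monocarboxylate) transporters and glucose transporters. Each bar is 1 library, in groups of replicates 1, 2 and 3 for *D/F* and *T/F* with DMSO and CCS1477. The *Hk3* share lies between 30.9 and 45.9 percent with DMSO and between 9.93 and 23.2 percent with CCS1477, and the *Pfkl* share between 31.3 and 39.0 percent with DMSO and between 41.6 and 48.3 percent with CCS1477.

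*Aldoa* encodes the aldolase that made up at least 97.5 percent of the summed TPM of both aldolase genes in every library. It was at 1952, 854 and 1222 TPM and 2689, 778 and 1425 TPM in *D/F*, and at 1113, 1424 and 1157 TPM and 1205, 1600.0 and 1239.8 TPM in *T/F*. The log2 fold changes of 0.18 (SE 0.51) and 0.13 (SE 0.15) were not called (limma adjusted p = 0.846 and 0.53, and 0.358 and 0.0961 with the mouse as a block). *Aldoc*, the minor form, was at 9.73, 18 and 3.57 TPM and 22.2, 19.7 and 6.11 TPM in *D/F* and at 3.13, 6.28 and 8.47 TPM and 4.26, 8.57 and 9.77 TPM in *T/F*. It was higher in all 6 mice with overlapping groups, and was called only in *T/F* with the mouse as a block (log2 fold change 0.31, limma adjusted p = 0.0224, 0.562 without it). *Gpi1* and *Tpi1*, the isomerases before and after aldolase, ranged from 487 to 1251 TPM and from 154 to 1012 TPM over the 12 libraries. Both were called only in *T/F* with the mouse as a block, with log2 fold changes of -0.20 and -0.24 (limma adjusted p = 0.0334 and 0.0383).

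*Pfkfb3* and *Pfkfb4* make and remove fructose 2,6-bisphosphate, the metabolite that switches phosphofructokinase on. *Pfkfb3* (ENSMUSG00000026773, chromosome 2 from 11471433 to 11554077, GRCm38, minus strand), whose product mainly makes it, was at 84.6, 160.0 and 128 TPM in *D/F* with DMSO and at 51.9, 43.8 and 58.4 TPM with CCS1477. The *T/F* values were 82.1, 109 and 157 TPM with DMSO and 31, 54.9 and 77.8 TPM with CCS1477. The groups were apart in both genotypes, and *D/F* replicate 2 had the highest DMSO and the lowest CCS1477 value of the *D/F* mice. Its log2 fold change was -1.22 (SE 0.26, limma adjusted p = 0.0356) in *D/F* and -1.12 (SE 0.39, limma adjusted p = 0.0614, 0.00376 with the mouse as a block) in *T/F*. In *D/F* the call was lost without any 1 of the mice, with log2 fold changes of -1.48 without replicate 1, -0.91 without replicate 2 and -1.27 without replicate 3. *Pfkfb4* was at 19, 13 and 14.2 TPM and 17.5, 25.3 and 15.4 TPM in *D/F*, and at 20.2, 16.8 and 11.8 TPM and 14.3, 17.2 and 17.4 TPM in *T/F*. Its mice went both ways in both genotypes, and it was not called in either (limma adjusted p = 0.44 and 0.908). *Pfkfb1* and *Pfkfb2*, outside the list and named after their values were seen, were higher with CCS1477 in every mouse. Mean TPM of *Pfkfb1* with DMSO and CCS1477 was 10.2 and 18.9 (*D/F*), or 10.6 and 21.7 (*T/F*). *Pfkfb2* averaged 18.8 and 29.6 (*D/F*), or 15.0 and 23.5 (*T/F*). Only *Pfkfb2* in *D/F* had overlapping groups, through the DMSO sample of replicate 2 (26.8 TPM). The net change of the family was not tested.

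The 5 lower enzymes, from glyceraldehyde 3-phosphate dehydrogenase to pyruvate kinase, had the largest sum of the role groups, with summed TPM in *D/F* of 8465, 4093 and 6003 with DMSO and 10369, 3253 and 6049 with CCS1477. Their *T/F* sums were 5522, 6470.4 and 5501 TPM with DMSO and 4945, 6252 and 5136 TPM with CCS1477. In *D/F* limma called 0 of the 5 (0 with an unadjusted p below 0.05, and 0 called with the mouse as a block, where 1 had an unadjusted p below 0.05, against 51.7% of all genes). In *T/F* it called *Pgam1*. *Gapdh*, often used as a reference gene, was at 2854, 1425 and 2344 TPM and 4235, 1397 and 2569 TPM in *D/F*, and at 2145, 2429.6 and 1931 TPM and 2094, 2567 and 1977 TPM in *T/F*. The mean log2 fold change was 0.22 (SE 0.45) in *D/F* and 0.03 (SE 0.13) in *T/F* (limma adjusted p = 0.784 and 0.89), and its level differed more between *D/F* mice than between treatments. Values of *Gapdh*, *Pgk1*, *Pgam1*, *Aldoa*, *Tpi1* and *Ldha* are uncertain to the extent that reads of their annotated pseudogenes or near-identical copies were assigned to them, and *Eno1b* and *Pgk1-rs7* are listed in rows of their own at no more than 7.78 and 7.74 TPM.

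*Pgam1*, which encodes phosphoglycerate mutase, was at 655, 710.1 and 584 TPM in *T/F* with DMSO and at 448, 533 and 413 TPM with CCS1477. The groups did not overlap, and the log2 fold change was -0.49 (SE 0.12, limma adjusted p = 0.0237). The call was lost without any 1 of the *T/F* mice, at log2 fold changes of -0.46, -0.52 and -0.48 without replicates 1, 2 and 3. In *D/F* it was at 693, 344 and 572 TPM and 797, 156 and 479 TPM, with replicate 1 higher and replicates 2 and 3 lower with CCS1477, and the log2 fold change of -0.40 was not called (limma adjusted p = 0.708). *Eno1*, which encodes enolase 1, was lower in all 6 mice over a range of 582 to 2359 TPM, and passed only in *T/F* with the mouse as a block (log2 fold change -0.27, limma adjusted p = 0.0149). *Pgk1* and *Pkm*, which encode the ATP-forming phosphoglycerate kinase and pyruvate kinase, were not called in any fit within a genotype, with log2 fold changes of 0.11 and -0.04 in *D/F*, and -0.06 and -0.01 for *T/F*.

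Of the 2 lactate exporters, *Slc16a1* was called and *Slc16a3* was not. *Slc16a1* (ENSMUSG00000032902, chromosome 3 from 104638668 to 104658462, GRCm38, plus strand) encodes the monocarboxylate transporter MCT1, a MYC target with the E-box shown above. It was at 71.9, 47 and 88.3 TPM in *D/F* with DMSO and at 29.5, 17.2 and 36.7 TPM with CCS1477. In *T/F* it was at 75.7, 75.3 and 80.9 TPM and 24.5, 25 and 25.4 TPM. No CCS1477 library reached the lowest DMSO library of its genotype, and the *T/F* mice lay close together under either treatment. The change on the log2 scale was -1.59 (SE 0.06, limma adjusted p = 0.000242) in *T/F*, called under all 11 alternatives, and -1.30 (SE 0.35) in *D/F*, where the limma adjusted p was 0.0593 and 0.0049 with the mouse as a block.

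*Slc16a3*, which encodes the lactate exporter MCT4, was at 262, 41.4 and 101 TPM and 393, 33.3 and 122 TPM in *D/F*, and at 74.8, 147 and 82.3 TPM and 72.2, 149 and 92.5 TPM in *T/F*. The groups overlapped, and the log2 fold changes of 0.18 (SE 1.01) and 0.05 (SE 0.36) were not called (limma adjusted p = 0.926 and 0.93). *Slc16a1* held 21.5, 53.2 and 46.6 percent of the summed TPM of both transporters in *D/F* with DMSO and 6.99, 34.1 and 23.2 percent with CCS1477. In *T/F* it held 50.3, 33.9 and 49.6 percent and 25.3, 14.3 and 21.5 percent. The share was lower with CCS1477 in each mouse, with no overlap in *T/F*.

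*Ldha* encodes the main subunit of lactate dehydrogenase. It was at 1411, 459 and 987 TPM in *D/F* with DMSO and 1541, 163 and 849 TPM with CCS1477, and at 872, 1039.9 and 985 TPM and 634, 896 and 724 TPM in *T/F*. The *T/F* mice were all lower with CCS1477, while *D/F* replicate 1 was higher and *D/F* replicate 2 much lower. limma put the log2 fold change at -0.37 (SE 0.14, limma adjusted p = 0.0859, 0.0191 with the mouse as a block) in *T/F* and -0.53 (SE 0.86, limma adjusted p = 0.726) in *D/F*. *Ldhb*, which encodes the heart-type subunit, was low, at 1.37, 1.53 and 0.967 TPM in *D/F* and 1.26, 1.1 and 0.995 TPM in *T/F* with DMSO, and at 2.32, 6.89 and 2.37 TPM and 2.48, 2.04 and 2.1 TPM with CCS1477. Every CCS1477 library was above every DMSO library of its genotype, with the highest value in *D/F* replicate 2. The log2 fold change, which a pseudocount of 1 keeps small at such levels, was 0.60 (limma adjusted p = 0.00321) in *T/F* and 0.97 (limma adjusted p = 0.129, 0.0447 with the mouse as a block) in *D/F*. *Ldhb* still made up no more than 4.05 percent of the summed lactate dehydrogenase TPM of any library.

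The genes that take pyruvate into the mitochondrion rose a little in both genotypes. *Mpc1* and *Mpc2* encode both subunits of the mitochondrial pyruvate carrier. *Mpc2* was at 35.5, 36.2 and 34.1 TPM in *D/F* with DMSO and at 53.6, 55.9 and 53 TPM with CCS1477. The *T/F* values were 40.4, 44.9 and 46.4 TPM with DMSO and 52.4, 58.2 and 49.7 TPM with CCS1477. The *D/F* mice lay close together and the groups were apart in both genotypes. The log2 fold change was 0.60 (SE 0.13, limma adjusted p = 0.0359) in *D/F*, lost without replicate 1 or 3 at 0.62 and 0.60, and 0.28 (SE 0.09, limma adjusted p = 0.051, 0.0492 with the mouse as a block) in *T/F*.

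*Mpc1* was at 131, 107 and 121 TPM and 172, 147 and 158 TPM in *D/F*, and at 129, 123 and 119.7 TPM and 162, 143 and 146 TPM in *T/F*. Its groups did not overlap, and its log2 fold change was 0.28 (limma adjusted p = 0.028) in *T/F* and 0.41 (limma adjusted p = 0.134, 0.026 with the mouse as a block) in *D/F*. The *T/F* call was lost without any 1 of the mice, at 0.25, 0.31 and 0.27 without replicates 1, 2 and 3, and under rescaling to the median gene, at 0.20. *Pdhb*, which encodes the beta subunit of the dehydrogenase that turns pyruvate into acetyl-CoA, was at 117, 85.6 and 114 TPM and 144, 129 and 148 TPM in *D/F*, and at 102, 105 and 94.2 TPM and 137, 134 and 122 TPM in *T/F*. Its groups were apart in both genotypes, and its log2 fold change was 0.38 (limma adjusted p = 0.0111) in *T/F* and 0.42 (limma adjusted p = 0.171, 0.0369 with the mouse as a block) in *D/F*. Leaving out *T/F* replicate 1 or 2 lost the *T/F* call, at 0.36 and 0.39, as did rescaling to the median gene, at 0.30. The alpha subunit *Pdha1* (90.3 to 131 TPM) and the acetyltransferase subunit *Dlat* (53.2 to 70.9 TPM) were not called in any fit within a genotype, with log2 fold changes of 0.01 and -0.08 in *D/F*, and -0.14 and -0.20 for *T/F*.

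Of the 3 PDH kinases of the list, which phosphorylate and shut down this complex, only the one with the lowest level was called. *Pdk4*, outside the list, had lower means still, at 1.65 TPM with DMSO and 1.73 TPM with CCS1477 in *D/F*. In *T/F* its means were 1.61 and 1.55 TPM. *Pdk2* (ENSMUSG00000038967, chromosome 11 from 95026258 to 95041354, GRCm38, minus strand) was at 1.32, 5.22 and 1.37 TPM in *D/F* with DMSO and at 5.93, 19 and 5.29 TPM with CCS1477. In *T/F* it was at 2.5, 1.82 and 1.5 TPM and 7.31, 7.12 and 6.5 TPM. It was higher in all 6 mice and the groups did not overlap, with *D/F* replicate 2 the highest under both treatments. Its log2 fold change was 1.45 (SE 0.13, limma adjusted p = 0.000915) in *T/F*, called under all 11 alternatives. In *D/F* it was 1.56 (SE 0.57), with a limma adjusted p of 0.127, and of 0.00476 with the mouse as a block, where the standard error was 0.10.

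*Pdk1* was at 147, 77.6 and 83.7 TPM and 166, 64.5 and 81.5 TPM in *D/F*, and at 68.9, 86.9 and 73.6 TPM and 64.1, 85.8 and 70.5 TPM in *T/F*. *Pdk3* was at 69.7, 48.2 and 54.2 TPM and 62.5, 45.3 and 53.9 TPM in *D/F*, and at 55.6, 49.5 and 53.4 TPM and 54.2, 53.1 and 63.1 TPM in *T/F*. The groups of both genes overlapped in both genotypes. The log2 fold changes were -0.04 and -0.06 for *Pdk1* and -0.08 and 0.10 for *Pdk3* in *D/F* and *T/F*, with no limma adjusted p below 0.305 with or without the block. *Pdk2* made up 0.603, 3.99 and 0.981 percent of the summed TPM of *Pdk1*, *Pdk2* and *Pdk3* in *D/F* with DMSO and 2.53, 14.7 and 3.76 percent with CCS1477, and 1.97, 1.32 and 1.17 percent and 5.82, 4.87 and 4.64 percent in *T/F*.

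The 6 genes of the pentose phosphate pathway, which makes NADPH and ribose, had log2 fold changes below 0 in both genotypes, most of them small. *Rpia*, which encodes the isomerase that forms ribose 5-phosphate, was the one called without the block. It ranged from 93.5 to 108 TPM over the 6 DMSO libraries and from 78.5 to 83.6 TPM over the 6 CCS1477 libraries, with no overlap. The change on the log2 scale was -0.26 (SE 0.07, limma adjusted p = 0.0212) in *T/F*, lost without replicate 1 or 2 at -0.23 and -0.25, and -0.39 (SE 0.13, limma adjusted p = 0.0274 with the mouse as a block, not called without it) in *D/F*. With the mouse as a block, *Pgd* (6-phosphogluconate dehydrogenase) and *Tkt* (transketolase) also fell in *T/F*, with changes of -0.37 and -0.23 on the log2 scale (limma adjusted p = 0.00663 and 0.0252). The entry enzyme *G6pdx* (119.9 to 249 TPM), *Pgls* (74.0 to 100.2 TPM) and *Taldo1* (207 to 314 TPM) were not called in either genotype in either of these fits, with log2 fold changes between -0.16 and -0.02.

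*Hif1a* encodes the oxygen-regulated subunit of HIF-1, whose level is set mainly at the protein, so its transcript is only part of the picture. It was at 116, 65.2 and 109 TPM and 75.5, 61.2 and 79.7 TPM in *D/F*, and at 91.8, 107 and 95.6 TPM and 73.3, 75.2 and 76.2 TPM in *T/F*. All 6 mice were lower, with no overlap in *T/F* and with *D/F* replicate 2 lowest under both treatments. limma put the log2 fold change at -0.38 (SE 0.08, limma adjusted p = 0.0101) in *T/F*, lost without any 1 of the mice at -0.41, -0.32 and -0.41, and -0.38 (SE 0.26, limma adjusted p = 0.366, 0.0875 with the mouse as a block) in *D/F*. For reference, *Myc* changed by -4.21 (limma adjusted p = 0.00131) in *D/F* and by -3.45 (limma adjusted p = 0.000311) in *T/F* on the log2 scale.

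Of 26 other genes of the HIF pathway and its targets, 24 were tested in *T/F*, where limma called 8 higher and 2 lower (33.3% and 8.33%, against 25.8% and 17.6% of all genes), and 25 in *D/F*, where it called 4 higher and 0 lower (16.0% and 0%, against 5.14% and 6.51%). The block gave 14 higher and 6 lower in *T/F* (58.3% and 25.0%, against 31.2% and 22.9%) and 13 higher and 3 lower in *D/F* (52% and 12%, against 21.4% and 18%). Their median log2 fold change was 0.30 in *T/F* and 0.56 in *D/F*, beside 0.07 and 0.06 over all genes. *Epas1*, which encodes HIF-2 alpha, was called above 2-fold in both genotypes. It was at 2.08, 1.64 and 1.38 TPM in *D/F* with DMSO and at 8.61, 7.28 and 6.58 TPM with CCS1477, and at 1.95, 1.71 and 1.55 TPM and 5.59, 6.23 and 4.89 TPM in *T/F*. No CCS1477 library overlapped the DMSO libraries, and the log2 fold change was 1.65 (limma adjusted p = 0.00709) in *D/F* and 1.26 (limma adjusted p = 0.00066) in *T/F*. *Arnt*, the partner subunit of both HIF proteins, and *Hif1an*, which encodes the inhibitor of HIF-1, were also called higher in both and are named after their values were seen, with log2 fold changes of 0.89 and 0.91 in *D/F*, and 0.78 and 0.64 for *T/F* (limma adjusted p = 0.0289, 0.0289, 0.000639 and 0.0011). On the same list 7 genes had a log2 fold change below 0 in each genotype. Among them was *Vegfa*, also named after its values were seen. In *D/F* it went from 166, 99.1 and 94.7 TPM to 105, 77.2 and 71.5 TPM. The *T/F* values went from 79.5, 66.3 and 75.0 TPM to 40.2, 32.8 and 40.0 TPM.

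Among 20 other glycolytic genes, 2 were called higher and 2 lower of 16 tested in *D/F* (12.5% each, against 5.14% and 6.51% of all genes), and 7 higher and 3 lower of 15 tested in *T/F* (46.7% and 20.0%, against 25.8% and 17.6%). *G6pc3*, which encodes a glucose 6-phosphatase that reverses the hexokinase step and is needed by neutrophils, was called above 2-fold in both. It was at 74, 87.1 and 69.6 TPM and 27.5, 22.7 and 30.3 TPM in *D/F*, and at 60.3, 52.6 and 69.2 TPM and 31.5, 26.6 and 29.8 TPM in *T/F*. The groups did not overlap, and the log2 fold change was -1.49 (limma adjusted p = 0.00834) in *D/F* and -1.02 (limma adjusted p = 0.00186) in *T/F*. Of 18 other genes of lactate and pyruvate, 16 were tested, and 1 higher and 1 lower were called in *D/F* (6.25% each, against 5.14% and 6.51%) and 5 higher and 1 lower in *T/F* (31.3% and 6.25%, against 25.8% and 17.6%). *Pcx*, which encodes the mitochondrial pyruvate carboxylase, was the one above 2-fold in both. It was at 4.14, 3.41 and 2.6 TPM and 12.7, 15.1 and 9.27 TPM in *D/F*, and at 2.3, 2.21 and 3.01 TPM and 7.96, 6.66 and 8.77 TPM in *T/F*, with no overlap and log2 fold changes of 1.60 and 1.33 (limma adjusted p = 0.0124 and 0.00106). Of 10 other pentose phosphate genes, 8 were tested, with 0 called higher and 1 lower in *D/F* (12.5%, against 6.51%), beside 3 higher and 3 lower in *T/F* (37.5% each, against 25.8% and 17.6%).

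The 6 genes of the glucose-sensing MondoA axis were all tested, and the calls were 1 higher in *D/F* (16.7%, against 5.14% of all genes), 4 higher in *T/F* (66.7%, against 25.8%) and 0 lower in both. With the mouse as a block they were 3 higher and 1 lower in *D/F* (50% and 16.7%, against 21.4% and 18%). In *T/F* the block gave 4 higher and 1 lower (66.7% and 16.7%, against 31.2% and 22.9%). *Txnip*, the thioredoxin-interacting protein that restrains glucose uptake and is the best known MondoA target, is described after its values were seen. It was at 131, 169 and 57.8 TPM in *D/F* with DMSO and at 594, 611 and 209.8 TPM with CCS1477. The *T/F* values were 58.3, 88.1 and 75.7 TPM with DMSO and 219, 300.3 and 281 TPM with CCS1477. The groups were apart in both genotypes, and the log2 fold change was 1.84 (limma adjusted p = 0.0012) in *T/F* and 1.95 (limma adjusted p = 0.0695, 0.00429 with the mouse as a block) in *D/F*. The arrestin *Arrdc4*, another MondoA target, was not called in either genotype, at 0.42 and 0.04 on the log2 scale (limma adjusted p = 0.674 and 0.783).

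The *D/F* mice differed from each other in these genes more than the *T/F* mice did and, by ratios of TPM + 1, more than they did over the genome. With DMSO, the highest TPM + 1 of the 3 *D/F* mice was a median of 1.79 times the lowest over the 38 genes. It was 1.44 times over all 15114 genes averaging 1 TPM or more. More than 2-fold apart were 14 of the 38 (36.8%), against 18.9% of all genes. Adding 1 lowers the ratio most for genes of low TPM, so the comparison with all genes is not strictly like for like. With CCS1477 the median over the 38 genes was 2.24 (1.4 over all genes), and 21 of the 38 were beyond 2-fold. In *T/F* they were 1.20 and 1.19 with DMSO and 1.22 and 1.16 with CCS1477. The order was shared by many of the genes: 22 of the 38 (57.9%) were highest in *D/F* replicate 1 and lowest in replicate 2 with DMSO, against 11.3% of all genes, and 23 of the 38 (60.5%) with CCS1477, against 12.7%. The genes are not independent of each other, so the counts describe the mice and are no test.

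Summed over the 38 genes, the *D/F* replicates 1, 2 and 3 were at 17859, 8903 and 12796 TPM with DMSO and at 20502, 7028 and 12363 TPM with CCS1477, and the *T/F* replicates at 11778, 13541 and 11703 TPM and 10412, 12793 and 10581 TPM. *D/F* replicate 2 was the lowest under both treatments and replicate 1 the highest. The same libraries differed in their markers. In *D/F* with DMSO the summed mature neutrophil list was 9428, 2683 and 6281 TPM and the megakaryocyte list 34.9, 212 and 50.3 TPM in replicates 1, 2 and 3, and *Kit* was at 50.5, 149 and 60.9 TPM, *Cd34* at 110.3, 447 and 138 TPM and *Mpo* at 3673, 1163 and 2646 TPM. The HIF target *Bnip3*, a mitophagy receptor, was at 288, 22.1 and 77 TPM. Not every HIF target had this order: *Car9* was at 22.1, 37.5 and 13.6 TPM, highest in replicate 2. Their part in the spread of the glycolytic genes was not tested. Leaving out replicate 2, with the mouse as a block, gave 9 calls in *D/F* (5 higher and 4 lower) in place of 13, or 23.7% of the 38 genes in place of 34.2%, while the calls over all genes went from 39.3% to 33.0%.

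**Figure D4:**
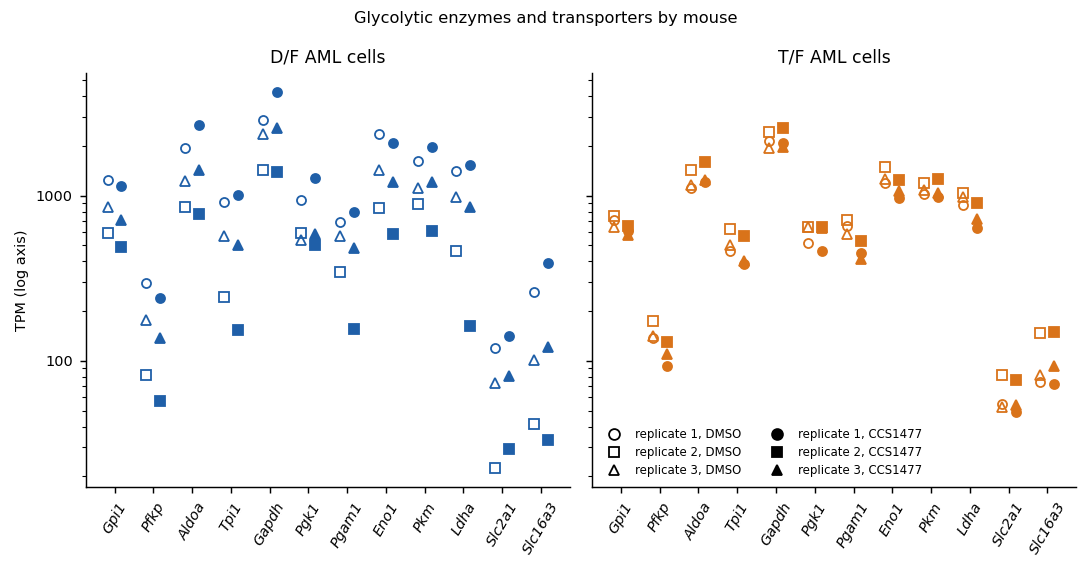
TPM on a log axis of 10 enzymes and 2 transporters in each library, *D/F* at left and *T/F* at right. Open symbols are DMSO and filled symbols CCS1477, and circles, squares and triangles are replicates 1, 2 and 3. In *D/F*, replicate 2 is the lowest mouse for 11 of the 12 genes with DMSO and for all 12 with CCS1477, while the *T/F* mice lie closer together.

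No gene of the list was called between the genotypes. *T/F* against *D/F* with DMSO gave 0 of 38 calls from limma (4 with an unadjusted p below 0.05, against 6.15% of all genes), beside a background of 0.0328% of all genes called, and with CCS1477 0 of 38 (0 with an unadjusted p below 0.05, against 10.8%), beside 0.0329%. With DMSO the groups did not overlap for *Mpc2*, higher in *T/F* (1 of 38, against 5.17% of all genes), and for *Slc2a3*, *Hk1*, *Hk3* and *Rpia*, lower in *T/F* (4 of 38, against 7.42%). The log2 differences of *T/F* from *D/F* were 0.31 for *Mpc2*, -0.64 for *Slc2a3*, -0.38 for *Hk1* and -0.76 for *Hk3*, with unadjusted p of 0.0333, 0.0108, 0.0214 and 0.0122 and limma adjusted p of 0.595 or more. With CCS1477 no gene of the list had groups that did not overlap, against 9.59% of all genes higher and 10.7% lower.

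No difference in the response to CCS1477 between the genotypes passed the threshold: limma called 0 of 38 (1 with an unadjusted p below 0.05, against 4.23% of all genes) and 0 of 38 with the mouse as a block (3, against 14.7%), and 0% of all 15583 genes. The largest difference was that of *Hk3*, at 0.94 on the log2 scale (*T/F* minus *D/F*, SE 0.55, limma adjusted p = 1.00), so the smaller fall in *T/F* did not pass. *Mpc2* was at -0.33 (SE 0.13, unadjusted p = 0.0349, limma adjusted p = 1.00). With the mouse as a block, *Slc16a1* was at -0.29 and *Slc2a1* at -0.33 (unadjusted p = 0.0147 and 0.0239, limma adjusted p = 0.249 and 0.28). A miss of the threshold does not show equal responses. The mean changes had the same sign in both genotypes for 34 of the 38 genes (89.5%, 12 higher and 22 lower), against 84.1% of all genes tested in both, and opposite signs for *Slc2a1*, *Pgk1*, *Pdha1* and *Pdk3*, none of which was called. Non-overlapping groups numbered 5 higher and 4 lower in *D/F* (against 19.9% and 16.7% of all genes) and 6 higher and 12 lower in *T/F* (against 33.5% and 22.6%). For single genes the exact permutation test of 3 samples against 3 cannot go below p = 0.1, which every gene without overlap reached.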

How the data were processed

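RNA was sequenced from 12 samples of mouse AML cells in 4 groups of 3. The authors deposited 1 table of TPM per gene, for which the submitters' processing notes name kallisto and mm10 and the study's methods AltAnalyze. Annotation and settings are not given in the sources used here. The values are linear and not pooled. The table leaves out low genes, the lowest of the genes' highest values being 2.00 TPM. The depth reached by each library is unknown, so precision is the spread between 3 mice. The 38 genes, the other lists and the alternatives were chosen with earlier results of these data known.

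Each column was matched to 1 sample by mouse number, genotype and treatment. The test was limma 3.58.1 (R 4.3.3), run two-sided on log2(TPM + 1) values with untrended eBayes and Benjamini-Hochberg adjustment over all genes that reached a mean of 1 TPM in at least 1 group compared. Fold changes on this scale understate those of low genes. Calls needed an adjusted p below 0.05. Within a genotype only its 6 samples were fitted, and the difference between responses was fitted on all 12. The scripts were tested on simulated data. Positions are from GENCODE vM21 (GRCm38) and promoters from RefSeq (GRCm38.p6).

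The sample records give each replicate number to a single mouse, so the numbers pair the samples. In the study's supplementary data a column head gives another mouse number for *D/F* replicate 3, and the sample records were followed here. The correlation over all genes tested between their deviations from the group means was 0.527, 0.655 and 0.531 for *D/F* mice 1 to 3 and 0.367, 0.340 and 0.478 for *T/F* mice. Values were given per sample for genes called above 2-fold, for the 5 largest rises and falls, ranked by whichever genotype changed less, for the paralog sets, *Gapdh* and *Hif1a*. Genes of other lists were named when called above 2-fold in both genotypes. Other named genes were chosen after their values were seen.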

Additional observations from a re-analysis of the deposited data

How the results depend on the processing

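Of the 38 genes, limma called 3 in *D/F*, and the count was 5 with an intensity trend, 13 with the mouse as a replicate block, 11 in a shared fit of the 4 groups, and 0 to 6 when 1 mouse was left out, with 0 without replicate 1 or 3. A block without *D/F* replicate 2, added after seeing the data, gave 9. In *T/F* the 13 calls became 23 with the mouse as a block, 5 in the shared fit, and 5 to 10 when 1 mouse was left out. Over both genotypes the 13 calls became 22 with the mouse as a block, which took away no call made without it in *D/F* or *T/F*. Other alternatives (pseudocount 0.1, a filter at 5 TPM, none, median rescaling, quantile normalization) kept these counts within 1.5 times. The comparisons of genotypes and of responses stayed at 0 under every alternative run, and no gene of the 38 that was called turned its direction. The whole-table counts were 1805 in *D/F* (6098 with the block and 5015 with it but without replicate 2, 4940 in the shared fit, 2846 with quantile normalization, 3739 without replicate 2, and 0 without replicate 1 or 3) and 6620 in *T/F* (3713 in the shared fit, and 3473 and 3192 without replicates 1 and 2). In *D/F*, quantile normalization called 1552 genes higher and 1294 lower in place of 796 and 1009, and in *T/F* median rescaling called 3139 higher and 3154 lower in place of 3935 and 2685. The cause of these shifts was not tested. TPM keeps no depth, so no limit on low values could be set.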
